A study of Dugesia japonica with 157 samples.

Results

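The genes described here are the 150 transcripts of the planarian Dugesia japonica whose levels stood highest, relative to the remainder of the body, in sections 53 to 65 of an animal cut from head to tail. They were chosen by their measured values in the antero-posterior series. For each gene the mean log2(CPM + 1) over sections 53 to 65 was compared with the mean over the other sections, where CPM is the estimated count scaled by the library total, and the difference is called the lead. Of 25566 transcripts in the table, 13598 passed a count minimum, 5 or more counts in 10% of the kept sections, and 673 of these had their largest lead in sections 53 to 65 with a value of at least 1. The 150 with the largest leads are the members. Their levels along the antero-posterior axis are therefore a description, and tests were run only on the dorsal-ventral and right-left series, which the choice did not use.

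Planarians are flatworms with a head carrying the brain and eyes, a trunk that holds the pharynx used for feeding, and a tail. A branched gut runs through the interior, surrounded by a parenchyma that holds the stem cells, and the body wall outside it consists of muscle and epidermis. Muscle cells of the body wall express position control genes, secreted signals and receptors whose levels differ between head and tail, between the dorsal and ventral sides and between the midline and the flanks. The labels do not say which organs fall into which section. The tables give identifiers without gene names, so the markers of gut, pharynx, muscle, neurons, stem cells, epidermis and other tissues could not be looked up, and no cell type or function is given for any member.

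The study made RNA-seq libraries from serial sections of whole animals of strain AF, with 78 sections on the antero-posterior axis, 28 on the dorsal-ventral and 51 on the right-left axis, and the labels name no treatment and no replicate animals. Only sections that reached 20% of their axis's median total were kept, which gave 74, 21 and 37 libraries. Along the antero-posterior axis these form the zones of sections 1 to 7 (5 kept), 8 to 26 (19), 27 to 52 (26), 53 to 65 (13) and 66 to 78 (11). The column names of sections 1 to 7 give the zone but no unambiguous section number. The dorsal-ventral libraries form a dorsal part (sections 1 to 9, 5 kept), a middle part (10 to 18, 8 kept) and a ventral part (19 to 28, 8 kept). The right-left libraries form a right part (1 to 17, 8 kept), a middle part (18 to 34, 15 kept) and a left part (35 to 51, 14 kept). Sections stand in for replicates, so p-values measure the spread between sections of an axis and not the spread between animals. The kept libraries held 175749 to 12945391 estimated counts on the antero-posterior axis, 623214 to 26807303 on the dorsal-ventral axis and 236421 to 13052596 on the right-left axis.

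Along the body, the 150 genes formed a broad plateau in sections 53 to 65 above a level that was already present in front of it. Their mean log2(CPM + 1) was 4.79 ± 0.44 (SD, n = 13) in sections 53 to 65, with a lowest section at 3.80, a median of 4.93 and a highest section at 5.35. It was 3.62 ± 0.94 (n = 26) in sections 27 to 52, 3.31 ± 0.96 (n = 19) in sections 8 to 26, 2.29 ± 0.81 (n = 5) in sections 1 to 7 and 2.11 ± 0.72 (n = 11) in sections 66 to 78. The mean over all 13598 genes was 2.59, 2.47, 2.62, 2.81 and 1.71 in the same order of zones. That sections 53 to 65 stood highest follows from the choice of members. Among the other zones the members stood lowest in the foremost and hindmost sections and higher in sections 8 to 52.

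Steps at the borders of the zone follow from the rule, which chose the members by their mean between these borders; with the zone set to sections 54 to 66, 90 of the 150 would be chosen again. Section 51 stood at 1.65 and section 52 at 2.72, section 53 at 4.14 and section 54 at 5.02. At the posterior edge the mean went from 4.39 in section 65 to 1.96 in section 66. Sections well in front of the zone reached nearly the same level, with 4.82, 4.85 and 4.86 in sections 45, 46 and 47. The libraries differ in depth along this path. Sections 51 and 66 held 268616 and 264969 counts, section 53 held 215073, and the median total was 2179857 in sections 53 to 65 against 1684960 in sections 27 to 52 and 280209 in sections 66 to 78. With every library thinned to 175749 counts the mean of the members was 4.56 in sections 53 to 65, 3.41 in 27 to 52, 3.15 in 8 to 26, 2.09 in 1 to 7 and 2.05 in 66 to 78. In sections of whole tissue, fewer cells of a type and less RNA per cell cannot be told apart.

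**Figure D1:**
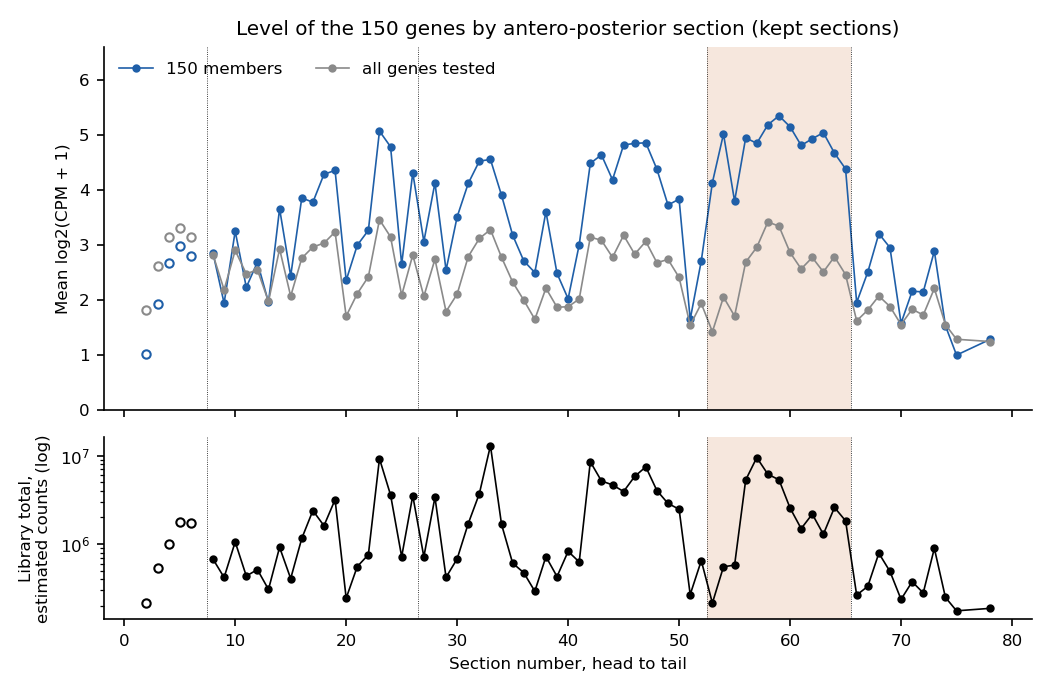
Mean log2(CPM + 1) of the 150 members (blue) and of all 13598 genes tested for a lead (grey) per kept section, above the library total on a log axis; open circles are the 5 kept libraries of sections 1 to 7, which have no individual number and are placed arbitrarily. The members stand between 3.80 and 5.35 in the shaded sections 53 to 65, and the shallow sections 51 and 66 next to the zone stand at 1.65 and 1.96.

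The members were not confined to the zone from which they were chosen. A member had counts in a median of 12 of the 13 zone sections and in a median of 39 of the other 61, and 149 of 150 would have passed the count minimum without the zone. With the counts of a zone pooled, so that deep libraries weigh more, sections 53 to 65 had the highest CPM for 82 of the 150. The ratio of this pooled CPM to the highest among the other zones had a median of 1.03 (0.404 to 4.16), and it was at least 1.5 in 22 members and at least 2 in 10. Among the zones other than 53 to 65, pooled CPM was highest in sections 8 to 26 for 66 members, 27 to 52 for 44, 1 to 7 for 28 and 66 to 78 for 12. Smoothed over 5 sections, the highest level lay in sections 55 to 59 for 57 members and in 60 to 65 for 43, while 22 peaked in sections 8 to 26 and 20 in 27 to 52. The highest single section was 53 in 23 members and 54 in 15, both shallow libraries. It lay outside the zone in many others, in sections 27 to 52 for 35 members, 8 to 26 for 29, 66 to 78 for 19 and 1 to 7 for 6.

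The 2 members with the largest leads were high in front of the zone as well. DjGI019445_001 had a lead of 2.73, with 13.9 CPM in its lowest, 83.1 CPM in its median and 682 CPM in its highest section of the zone. In sections 27 to 52 it ranged from 0 to 3005 CPM with a median of 35.2 CPM, in sections 8 to 26 from 0 to 131 CPM with a median of 32.6 CPM, and in sections 66 to 78 from 0 to 85.7 CPM with a median of 0. Its highest library of the whole axis was section 45, outside the zone. DjGI016738_001 had a lead of 2.72, with 5.04 CPM in the lowest, 135 CPM in the median and 1317 CPM in the highest zone section. Its median was 64.4 CPM in sections 27 to 52 (0 to 1159 CPM) and 14.7 CPM in sections 8 to 26 (0 to 286 CPM). Behind the zone, in sections 66 to 78, it ranged from 0 to 585 CPM with a median of 0. Both genes had counts in all 13 zone sections, and in both the zones overlapped.

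The leads had a median of 1.58, and the threshold at rank 150 falls where neighbouring genes hardly differ. DjGI018207_001, the last member, had a lead of 1.4086 and a median of 18.1 CPM in the zone (8.53 to 67.8 CPM). DjGI008502_001, the first gene below it, also had a lead of 1.4086, with a median of 45.6 CPM in the zone (0 to 61.4 CPM). Pooled by zone, both genes were higher in sections 8 to 26 than in sections 53 to 65, at 31.8 against 24.3 CPM and 46.2 against 39.1 CPM.

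Members with the highest CPM were spread over the body as well. CPM is not corrected for transcript length, so these values are compared within a gene and not between genes. DjGI003016_001 stood at 4128 ± 2238 CPM (SD, n = 13) in the zone, from 376 to 7908 CPM. It stood at 2972 ± 1926 CPM (n = 26) in sections 27 to 52, 2148 ± 1475 CPM (n = 19) in 8 to 26, 1268 ± 1106 CPM (n = 11) in 66 to 78 and 55.0 ± 40.8 CPM (n = 5) in 1 to 7. Sections 1 to 7, where no library exceeded 96.9 CPM, were the low point of this gene. At the other extreme, DjGI012558_001 took 61.2% of its summed CPM from section 53, where it reached 135 CPM, and its median in the zone was 2.32 CPM. It had 0 counts in the 11 sections of 66 to 78, which allows a pooled level of up to 0.702 CPM. DjGI000024_020 took 40.5% of its summed CPM from section 45, outside the zone, where it reached 448 CPM, against a median of 9.76 CPM in the zone. Over all members the share in the highest section had a median of 9.19%, and it was above 25% in 7 of them.

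Several members belong together by identifier. The 150 rows have 135 distinct first parts, and 11 rows begin with DjGI000022, of 22 such rows in the table, while 5 begin with DjGI000024, of 21. Reads can be split between rows that are near-identical copies, so the values of single rows are uncertain, and these rows were summed. They are described because so many members carry them, a choice made after their values were seen. Over all members, 23.3% had a first part carried by several rows, below the 35.0% of the 13598 genes tested for a lead. The 11 DjGI000022 rows moved together across libraries, with a median pairwise Pearson r of 0.926 over the 74 antero-posterior libraries, 0.972 over the 21 dorsal-ventral and 0.901 over the 37 right-left libraries.

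In the antero-posterior zone the summed DjGI000022 rows had a median of 7641 CPM, a lowest section at 2399 CPM and a highest at 85352 CPM, which is section 56. The medians were 3991 CPM in sections 27 to 52, 3057 CPM in 8 to 26, 1438 CPM in 1 to 7 and 2321 CPM in 66 to 78. In the dorsal-ventral series the same rows took 5.47%, 13.4%, 11.3%, 15.4% and 13.3% of the 5 dorsal libraries. They took between 0.852% and 9.49% of the 8 middle libraries and between 1.06% and 12.1% of the 8 ventral libraries, where the next highest after section 25 was 3.54%. The dorsal libraries were thus high except for section 4, and section 10 in the middle and section 25 on the ventral side stood apart from their neighbours. In the edgeR quasi-likelihood fit (TMM scaling, Benjamini-Hochberg adjustment over all genes tested), the log2 fold change of dorsal over ventral lay between 1.49 and 2.02 in the 11 rows, with adjusted p from 0.047 to 0.186, and 1 row was called. The 5 DjGI000024 rows had dorsal over ventral values between 1.46 and 1.84, with adjusted p from 0.046 to 0.207, and again 1 row was called.

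A single right-left library was filled with these transcripts. The DjGI000022 rows took 35.5% of section 16, the last kept section of the right part and the deepest library of that axis, against 1.87% to 5.12% in the other 7 right libraries. They reached at most 11.8% in the middle and 14.6% on the left. On CPM scaled by TMM factors, all 150 members together held 578132 CPM in section 16, which is not a share of the library. In CPM by library total, a high share there lowers the CPM of every other gene. Member means and single-gene CPM on this axis use totals scaled by TMM factors instead. On those values section 16 did not stand low. Its mean over all genes tested was 3.23 on the log2 scale, the highest of the right part, in the deepest library of the axis.

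**Figure D2:**
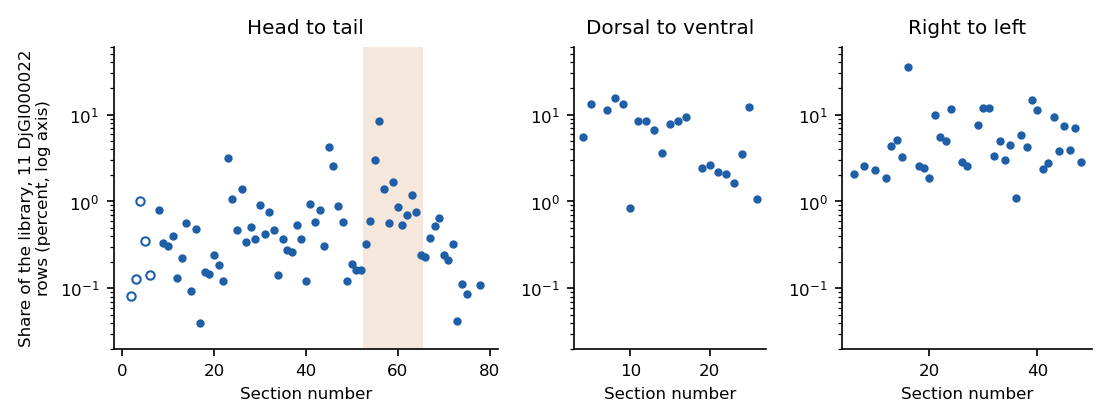
Share of each kept library, in percent on a log axis, that was taken by the 11 members whose identifiers begin with DjGI000022, along the 3 axes; sections 53 to 65 are shaded, and open circles are the 5 kept libraries of sections 1 to 7, placed arbitrarily. The dorsal libraries reach 15.4%, and section 16 of the right-left series stands alone at 35.5%.

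On the dorsal-ventral axis, which the choice did not use, the members stood highest in the interior of the animal and lowest on the ventral side. All 150 were among the 18291 genes tested. On this axis and the right-left axis, member means and single-gene CPM use library totals scaled by TMM factors, unlike the summed DjGI000022 rows. Their mean log2(CPM + 1) was 5.61 ± 0.25 (SD, n = 8) in the middle part, 4.74 ± 0.68 (n = 5) in the dorsal part and 3.91 ± 0.46 (n = 8) in the ventral part. The dorsal sections 4, 5, 7, 8 and 9 stood at 3.75, 4.38, 4.94, 5.14 and 5.47, climbing towards the middle. The middle libraries ranged from 5.08 to 5.78 and the ventral ones from 2.89 to 4.40, so the middle and ventral parts did not overlap. Over all genes tested the means were 2.85 in the middle, 2.67 dorsally and 2.52 ventrally. Smoothed over 5 sections, 104 members (69.3%) peaked in the middle, 36 (24.0%) dorsally and 10 (6.67%) ventrally, beside 41.7%, 21.5% and 36.8% of all genes tested.

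Of the 150 members, 41 (27.3%) were called higher in the dorsal-ventral middle than at its ends, and 1 (0.667%) was called higher at the ends. The same edgeR test, at an adjusted p under 0.05, called 4.69% of all genes tested in the middle direction and 4.41% in the direction of the ends. The members had higher levels than all genes tested, with a median over genes of the mean CPM of 20.5 against 5.52. The part of level in the shares called was not tested, here or in the tests below. The median log2 fold change of middle over ends was 0.72 over the members and 0.12 over all genes, and it was above 0 in 135 of the 150. With 1 row for each of the 135 first parts, 41 were called in the middle and 1 at the ends. Without section 10, the counts were also 41 and 1. Middle libraries were deeper, with a median total of 14600693.5 counts against 4323922 in the dorsal and 1874284.5 in the ventral part. With the section total as a term in the fit, 19 members (12.7%) were called in the middle and none at the ends, beside 0.836% and 0.213% of all genes. In that fit the median log2 fold change was 0.36 over the members and -0.17 over all genes, and it was above 0 in 96 of the 150. With counts thinned to 1 total, 40 and 1 of 146 members were called, beside 5.84% and 7.37% of all genes. Scaling by median of ratios lowered the median of all genes to -0.04 and turned the calls over all genes from 857 in the middle and 807 at the ends to 713 (3.9%) and 1034 (5.65%), while the members gave 37 and 1.

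**Figure D3:**
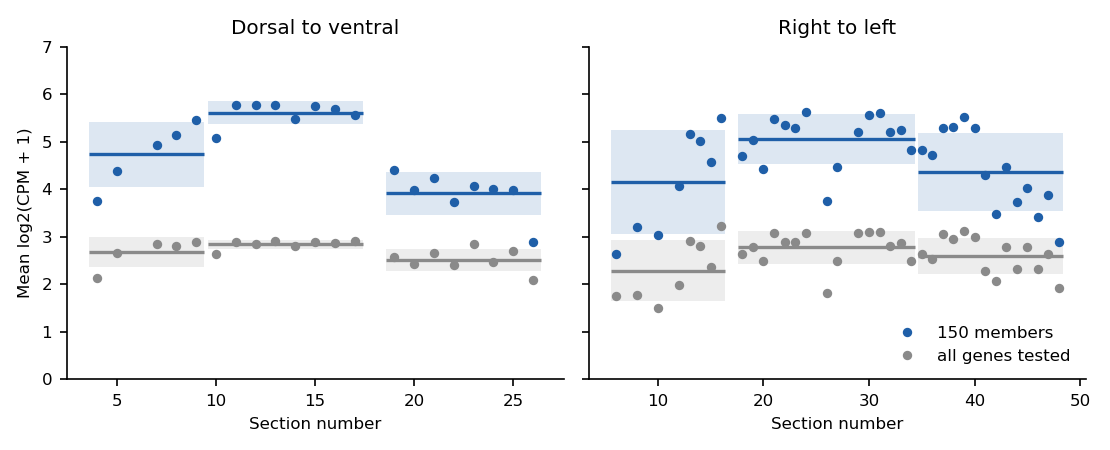
Mean log2(CPM + 1) of the 150 members (blue) and of all genes tested on that axis (grey) in each kept dorsal-ventral and right-left section; lines are the means of the 3 parts of an axis and bands are 1 SD over sections. The members' middle dorsal-ventral libraries (5.08 to 5.78) lie above every ventral library, and the right-left parts overlap. CPM here uses library totals scaled by TMM factors.

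The 2 members with the largest middle over ends values that were called, and the called member with the highest CPM, are given by section; the test sets the middle against the mean of both ends and not against the dorsal part alone. DjGI001615_001 had 0, 5.08, 35.0, 15.5 and 29.2 CPM in the 5 dorsal sections, a median of 106 CPM in the middle part (43.2 to 148 CPM) and a median of 4.11 CPM in the ventral part (0 to 13.9 CPM). Every middle library was above every dorsal and ventral library. Its log2 fold change of middle over ends was 3.49 (SE 0.53, adjusted p 6.15e-05, edgeR). DjGI008179_001 had 0, 0.782, 2.34, 1.17 and 4.26 CPM dorsally, a median of 25.1 CPM in the middle (11.2 to 50.3 CPM) and a median of 0.398 CPM ventrally (0 to 13.8 CPM). Only the ventral section 20, at 13.8 CPM, reached into the range of the middle. The log2 fold change was 3.58 (SE 0.67, adjusted p 0.000848, edgeR), and the adjusted p was 0.154 with the section total in the fit. DjGI003016_001, named above for its CPM, followed the same shape, with 497, 303, 1014, 1102 and 1752 CPM dorsally, a median of 2785 CPM in the middle (2379 to 3732 CPM) and a median of 409 CPM ventrally (108 to 1013 CPM). Its log2 fold change was 2.18 (SE 0.36, adjusted p 0.0002, edgeR), and no library of the ends reached those of the middle.

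The single member called higher at the ends was DjGI000288_001. It had 55.4, 81.3, 50.2, 20.2 and 14.6 CPM in the dorsal sections, a median of 8.48 CPM in the middle (6.71 to 24.9 CPM) and a median of 55.6 CPM ventrally (5.09 to 121 CPM). The parts overlapped. Its log2 fold change of middle over ends was -1.99 (SE 0.46, adjusted p 0.00685, edgeR), and the call was lost with all sections (adjusted p 0.0903), with narrower dorsal and ventral parts (0.0866) and with the section total in the fit (0.866).

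**Figure D4:**
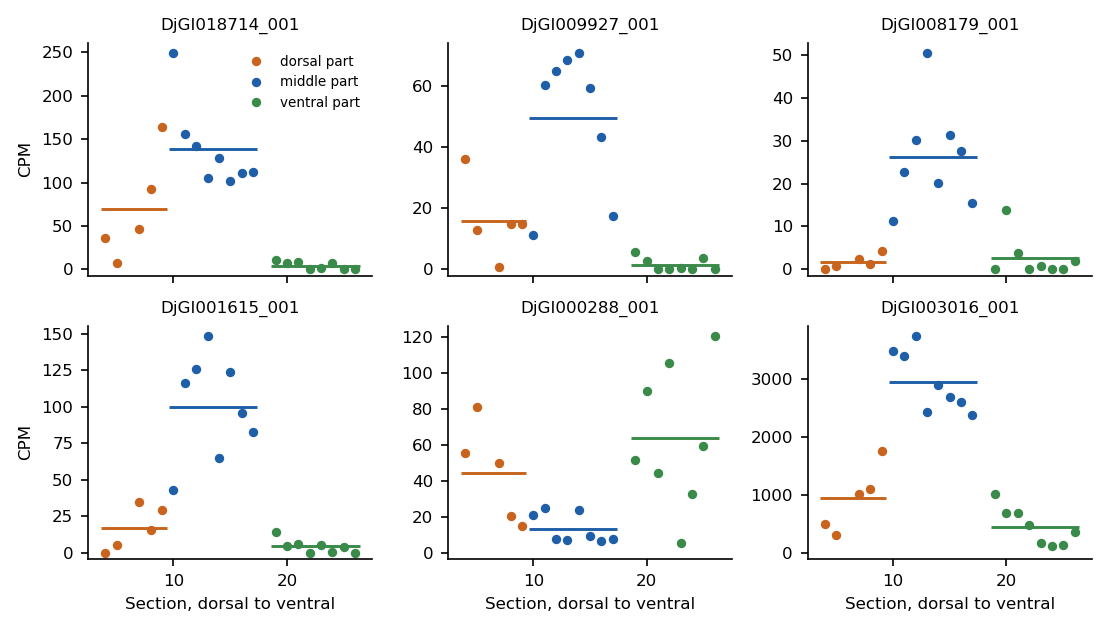
CPM of 6 members, by library totals scaled by TMM factors, in each kept dorsal-ventral section, with the mean of each part as a line (dorsal orange, middle blue, ventral green). DjGI001615_001 and DjGI003016_001 have every middle library above all others, DjGI018714_001 and DjGI009927_001 are low on the ventral side, and DjGI000288_001 is lowest in the middle.

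Between the 2 faces of the animal, called members were higher dorsally. There were 10 of 150 (6.67%) called higher in the dorsal than in the ventral part, beside 0.492% of all genes tested, and 0 higher ventrally, beside 0.306%, by edgeR at an adjusted p under 0.05. At an unadjusted p under 0.05, 50 members (33.3%) were higher dorsally and 1 (0.667%) ventrally, beside 7% and 5.6% of all genes. DESeq2 called 31 (20.7%) dorsally and 1 ventrally, beside 1.5% and 1.48% of all genes, and limma called 9 (6%) and 0, beside 0.585% and 0.235%. DESeq2 gave an adjusted p to every member but none to 2192 of the 18291 genes. The median log2 fold change of dorsal over ventral was 0.64 over the members and 0.01 over all genes, and it was above 0 in 109 of 150. Of the 10 dorsal genes, 7 were also called in the middle test. The dorsal count was 0 with narrower dorsal and ventral parts, where 0.0273% of all genes were called dorsally and 0.0164% ventrally. It was 1 with all sections (0.0756% and 0.124% of all genes) and 5 with the section total in the model (0.312% and 0.394%). It also moved when single libraries were left out: it was 2 without section 8 or 9, 4 without section 7, 5 without section 22 or 24, 21 without section 4, 22 without section 10 and 23 without section 25. In these fits the dorsal share of all genes ran from 0.19% without section 9 to 0.856% without section 4.

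The 2 called members with the largest dorsal differences had low levels on the ventral side. DjGI018714_001 had 36.3, 7.43, 46.9, 92.5 and 164 CPM in the dorsal sections 4, 5, 7, 8 and 9, and ventrally a median of 4.31 CPM (0 to 10.3 CPM). Its middle part was higher again, with a median of 120 CPM (101 to 249 CPM), and dorsal section 5 alone overlapped the ventral libraries. The log2 fold change of dorsal over ventral was 3.92 (SE 0.65, adjusted p 0.0018, edgeR). Along the body the same gene had a median of 104 CPM in sections 53 to 65 (64.2 to 197 CPM) and 82.8 CPM in 27 to 52 (6.57 to 269 CPM), and 1 count in all in the 5 libraries of sections 1 to 7.

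DjGI009927_001 had 36.3, 12.9, 0.781, 14.8 and 15.0 CPM dorsally, a median of 59.9 CPM in the middle (11.2 to 70.8 CPM) and a median of 0.159 CPM ventrally (0 to 5.55 CPM), with counts in 4 of 8 ventral libraries. Its dorsal over ventral log2 fold change was 3.27 (SE 0.78, adjusted p 0.0395, edgeR), and dorsal section 7 lay within the ventral range. The call was lost without section 4, 8, 9, 21, 22 or 24, with adjusted p from 0.057 to 0.0847. Its level along the body was 67.6 ± 48.4 CPM (SD, n = 13) in sections 53 to 65, 36.6 ± 29.3 CPM (n = 26) in 27 to 52 and 35.1 ± 37.7 CPM (n = 19) in 8 to 26.

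**Figure D5:**
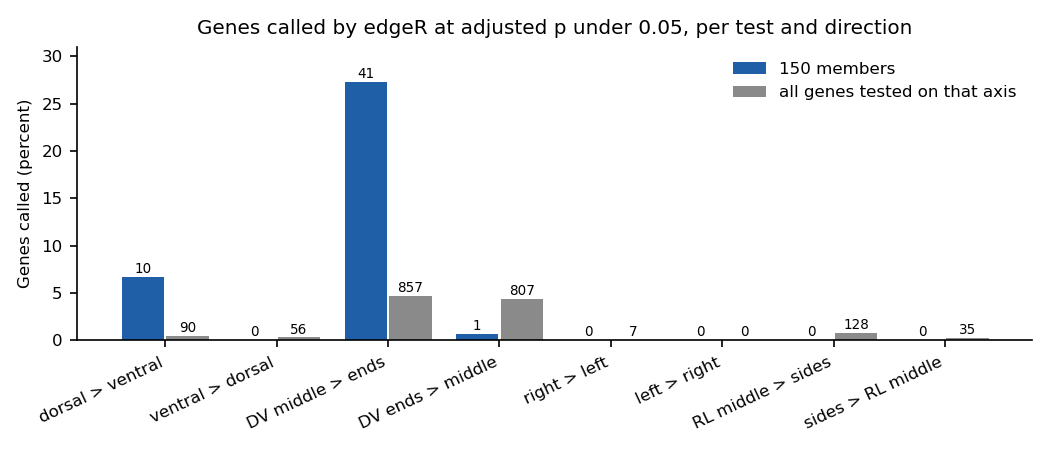
Percent of the 150 members (blue) and of all genes tested on the axis (grey) called by edgeR at an adjusted p under 0.05, per test and direction, with the number of genes above each bar. The members reach 27.3% in the dorsal-ventral middle beside 4.69% of all genes, and none is called on the right-left axis.

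Across the width of the animal no member was called by edgeR with the 3 parts given above. All 150 were among the 16463 genes tested, of which 0.0425% were called higher on the right, 0% on the left, 0.778% in the middle and 0.213% at the sides. Here too the members had higher levels, with a median over genes of the mean CPM of 20.9 against 5.65 for all genes tested. The members' mean log2(CPM + 1) was 4.15 ± 1.09 (SD, n = 8) on the right, 5.06 ± 0.53 (n = 15) in the middle and 4.37 ± 0.83 (n = 14) on the left, and the ranges of the 3 parts overlapped. At an unadjusted p under 0.05, 29 members (19.3%) were higher in the middle and 3 (2%) at the sides, beside 7.87% and 2.38% of all genes. On the same criterion 2 (1.33%) were higher on the right and 8 (5.33%) on the left, near the 3.75% and 4.31% of all genes. Without section 16 no member was called on this axis either. The smallest adjusted p was 0.0619 for the middle and 0.236 for right against left. The median log2 fold change of the middle over the sides was 0.22 over the members and 0.12 over all genes. Right against left, it was 0.10 over the members and -0.13 over all genes. For the middle against the sides, limma called 17 members (11.3%) in the middle and 0 at the sides, beside 1.81% and 0.0911% of all genes. DESeq2 called 0 in the middle and 1 at the sides, beside 0.692% and 0.571%. It gave no adjusted p to 44 members and to 11171 of the 16463 genes, which therefore could not be called. When the side parts were made narrower and the middle wider, edgeR called 45 (30%) in the middle and 1 (0.667%) at the sides, beside 8.2% and 0.577%. The right side then kept only sections 6, 8, 10 and 12, shallow libraries of 236421 to 507763 counts. With these narrower sides, 1 member (0.667%) was called higher on the right and 14 (9.33%) on the left, beside 1.04% and 4.48% of all genes. DESeq2 called none in either direction between right and left, beside 0.0547% and 0.0364% of all genes, and limma called no gene there. In that DESeq2 test 5 members and 7022 genes had no adjusted p.

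The 41 members called in the dorsal-ventral middle can be set beside the other 109 on the axes that this call did not use, as a description. Their log2 fold change for the right-left middle was above 0 in 41 of 41, from 0.04 to 1.88 with a median of 0.85, whereas it was above 0 in 61 of the other 109, with a median of 0.04. Among the body zones other than 53 to 65, pooled CPM was highest in sections 8 to 26 for 23 of the 41 (56.1%). It was highest in sections 27 to 52 for 16 (39.0%), in sections 1 to 7 for 2, and in sections 66 to 78 for none. In the other 109 these were 43 (39.4%), 28 (25.7%), 26 and 12. The 41 were also counted more deeply, with a median pooled level of 61.1 CPM in sections 53 to 65 against 20.2 CPM, and the part of depth in these differences was not tested. DjGI018714_001 illustrates the shape on the third axis, with medians of 9.89 CPM on the right (0 to 179 CPM), 85.1 CPM in the middle (0 to 227 CPM) and 7.13 CPM on the left (0 to 63.6 CPM). The log2 fold change of its middle over its sides was 1.79 (SE 0.56), with an adjusted p of 0.127 by edgeR, and the parts overlapped.

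The 150 genes chosen in the same way for the neighbouring zones had other counts in the same tests. In the dorsal-ventral middle test, 11 genes of sections 27 to 52 (7.33%) were called in the middle and 1 (0.667%) at the ends. For sections 66 to 78 it was 1 (0.667%) and 114 (76%), against 41 (27.3%) and 1 (0.667%) for sections 53 to 65. Over all genes tested these shares were 4.69% and 4.41%. Between the faces, 13 genes of sections 27 to 52 (8.67%) were called dorsally and 1 (0.667%) ventrally, beside 0.492% and 0.306% of all genes. Of sections 66 to 78, none was called in either direction. In the right-left middle test, 18 genes of sections 27 to 52 (12%) were called in the middle and 0 at the sides. Of the 147 genes of sections 66 to 78 that were tested, 1 (0.68%) was called in each direction. Over all genes tested these shares were 0.778% and 0.213%. Right against left, 3 genes of sections 27 to 52 (2%) were called on the right, beside 0.0425% of all genes. None was called on the left, and none of sections 66 to 78 in either direction. These lists were set side by side without a test of the difference. For correlations, each section's mean log2(CPM + 1) over all genes tested was first subtracted. The members of sections 53 to 65 varied together on the dorsal-ventral axis, with a median Pearson r of 0.52 between a member and the mean of the other members over 21 libraries (-0.74 to 0.93, above 0.5 in 79). On the right-left axis the median was 0.22 over 37 libraries (above 0.5 in 34). The median r of non-member genes with the member mean was -0.003 and -0.052 on these axes. These correlations share the libraries, their depths and, for 18 members, a first part of the identifier. Members and non-member genes were not matched in level.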

How the data were processed

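The deposited tables hold estimated counts per transcript and section, 1 table per axis, with all 157 columns used. Libraries were made with Lasy-Seq from polyadenylated RNA, per the labels' protocols. The tools named in the submitters' processing notes are Salmon (no version), BWA 0.7.17-r1188, fastp 0.21.0 and bcl2fastq 2.20.0. What each did, and on which reference, is not given in the sources used here. Of 4013862 deposited estimated counts, 1028 were not whole, and all were rounded before tests. With punctuation ignored, the names of 7 antero-posterior columns match more than 1 section, and they were used as the zone of sections 1 to 7 without individual numbers.

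The members were chosen by their lead as described, with a pseudocount of 1 on the log2 scale. Parts of the dorsal-ventral and right-left axes were compared with edgeR 4.0.16 (R 4.3.3; TMM factors, quasi-likelihood F-test, Benjamini-Hochberg adjustment over all genes tested, threshold 0.05) for genes with 5 or more counts in 10% of kept sections. CPM on the antero-posterior axis and of the summed DjGI000022 rows is by library total. On the dorsal-ventral and right-left axes, CPM of single genes and member means use library totals scaled by TMM factors. Alternatives were DESeq2 1.42.0, limma 3.58.1, median-of-ratios factors, other filters, thinned counts, narrower end parts of an axis (the outer 2 of 4 equal parts, with a wider middle), the section total as a covariate and leaving out each section. Counting 1 row per first part was added after seeing the data. Floors are 3 counts over a group and cover counting error only.

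Named identifiers are the 2 members with the largest lead, the most zone sections with counts, the highest CPM and the largest share in 1 section, those at ranks 150 and 151, and per test and direction the 2 called members with the largest log2 fold change among those with at least 10 CPM in the higher part whose sign held in separate fits of odd and even section numbers. The members, lists and tests were chosen with earlier results of these data known. The tables were normalized separately and are not compared in level between axes.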

Additional observations from a re-analysis of the deposited data

Results flagged for a closer look

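Of 19 groups of 4 to 10 libraries examined, 5 held a library far from the others by Dixon's criterion, which chance alone meets in about 1 in 20 groups. In the dorsal-ventral middle part, section 10 had 249.031 CPM of DjGI018714_001, above the other 7 libraries, and the lowest mean log2(CPM + 1) of the members in that part, 5.07545. Section 10 was also the shallowest library of the part, with 1643662 counts. In the ventral part, section 20 had 13.7709 CPM of DjGI008179_001 and section 19 had 13.8658 CPM of DjGI001615_001, each above the other ventral libraries. Section 26, the shallowest ventral library with 648215 counts, had the lowest member mean of that part, 2.89115.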

How the results depend on the processing

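Of the 150 members, 35 were again among the leading genes with a pseudocount of 10 (51 genes then had a lead of at least 1), 90 with sections of at least 50% of the median total, 90 with the zone moved to sections 54 to 66, 81 with thinned counts and 85 without sections 55 to 59. Leaving out single zone sections kept between 100 and 133. The dorsal-ventral middle count of 42 (41 middle, 1 ends) went to 19 with the section total in the model, and it ran from 38 to 49 without single sections. The dorsal-ventral count of 10 went to 32 with DESeq2 and 1 with all sections. It was 0 with narrower end parts and 5 with the section total in the model (shares of all genes above). With sections of at least 50% of the median total it was 27 (18%), beside 1.24% of all genes called dorsally and 0.585% ventrally. With thinned counts it was 19 of 146 (13%), beside 0.993% and 0.568%. It ran from 2 to 23 without single sections. Right against left, the count of 0 went to 15 with narrower end parts. The right-left middle count of 0 went to 1 with DESeq2, 17 with limma and 46 with narrower end parts (shares of all genes above). With all sections it was 5 (3.33%), beside 1.3% of all genes in the middle and 0.31% at the sides. With median-of-ratios factors it was 1, beside 0.547% and 0.352%, and with no low-count filter 1, beside 1.01% and 0.797%. With thinned counts it was 3 of 135 (2.22%), beside 1.16% and 0.464%. It ran from 0 to 2 without single sections. The causes were not tested. Direction was followed only for the 5 genes named for a dorsal-ventral test, and none of them changed it. The naming rule had already required their sign to hold in odd and even sections. Of 30 alternatives each, DjGI001615_001 was called in 30, DjGI008179_001 and DjGI018714_001 in 29, DjGI000288_001 in 27 and DjGI009927_001 in 21. No paired analysis was possible because sections of different parts share no animal-wise replicate number.

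Each axis has no replicate animal, and libraries are numbered in the order of the sections, so that position and a drift over libraries cannot be told apart. Shallow sections at the edges of each series limit what can be detected there. Identifiers have no gene names, and reads shared between rows with the same first part cannot be told apart.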
